A study of Mus musculus with 2 samples.

Results

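The genes described here are the mouse replication-dependent histone genes, taken as the genes of the deposited table whose symbol begins with *Hist1h*, *Hist2h*, *Hist3h* or *Hist4h*. The rule found 71 of the 34745 genes listed, 6 of class H1, 20 of H2A, 20 of H2B, 12 of H3 and 13 of H4. GENCODE M21 lists 67 of them as protein coding and 3 as pseudogenes, and gives a long noncoding RNA for 1 of the 2 identifiers named *Hist2h2bb*. RNA was from the liver of male mice aged 8 to 10 weeks, 3 days after partial hepatectomy (2/3 PH), an operation that sends quiescent hepatocytes back into the cell cycle. RNA of miR-182-5p KO mice gave 1 library and RNA of WT mice gave 1. The KO mice are heterozygous, with a single knockout allele. Both groups were operated on, so that no resting liver is part of the comparison. The number of mice behind each library is not stated, and the level of miR-182 was not analysed here.

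Histones H2A, H2B, H3 and H4 form the core around which DNA is wrapped, and linker histone H1 binds where the DNA enters and leaves it. The replication-dependent genes lie in clusters, mostly lack introns, and are transcribed in S phase to supply histones for new DNA. Their mRNAs normally end just after a stem-loop that the stem-loop binding protein (SLBP) holds, and have no poly(A) tail. Purification on poly-T beads, which the study's methods describe, is therefore expected to leave most of them out, while histone mRNAs with a poly(A) tail, known from some clustered genes and from differentiated cells, are kept.

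Few reads fell on these genes. Histone counts summed to 2155 of 13247497 reads in KO and to 3220 of 13163348 in WT, which is 0.0163% (exact 95% interval 0.0156% to 0.0170%) and 0.0245% (0.0236% to 0.0253%). Mitochondrial genes took 51.7% of the KO reads and 31.0% of the WT reads, so the libraries were compared after scaling by TMM, which limits the weight of extreme genes, with factors of 0.812 and 1.23. All intervals given here cover counting error only, because with 1 library per genotype there is no replicate check and the tests compare the libraries, not the genotypes. In whole liver, fewer cells in S phase and less histone RNA per cell cannot be told apart.

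After scaling, the sum over all 71 genes was 200.4 CPM (scaled reads per 1e6) in KO and 198.6 in WT, which differ by 0.01 on the log2 scale (95% interval −0.07 to 0.09). This value depended on the scaling and was −0.59 by total counts, under which the median over all genes tested was −0.60. What differed between the libraries was the composition. The H2A genes, led by *Hist2h2aa1* and *Hist2h2aa2*, took a larger part of the histone counts in KO, and the H2B and H1 genes, led by *Hist1h2bc* and *Hist1h1c*, a smaller part.

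The stem-loops of 9 members that the results turn on are shown first, since they lie in the 3′ UTR and mark where the normal, tailless histone mRNA ends. They were read from GENCODE M21 transcripts and are written as DNA on the strand of the gene, with GRCm38 positions. Capitals mark both arms of the stem, and the lower-case letters between them are the loop.
*Hist1h1c*, chr13:23739507-23739532, plus strand: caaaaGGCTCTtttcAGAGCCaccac
*Hist2h2aa1*, chr3:96246027-96246052, plus strand: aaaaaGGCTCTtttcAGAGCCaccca
*Hist2h2aa2*, chr3:96239779-96239804, minus strand: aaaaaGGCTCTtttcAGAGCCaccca
*Hist1h2be*, chr13:23585526-23585551, minus strand: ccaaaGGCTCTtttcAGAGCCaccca
*Hist1h2bf*, chr13:23573760-23573785, minus strand: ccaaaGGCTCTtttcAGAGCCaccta
*Hist1h3d*, chr13:23576239-23576264, plus strand: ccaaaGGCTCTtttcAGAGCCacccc
*Hist1h4h*, chr13:23531453-23531478, plus strand: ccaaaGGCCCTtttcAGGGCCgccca
*Hist1h4i*, chr13:22040961-22040986, minus strand: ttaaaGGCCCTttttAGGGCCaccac
*Hist1h4c*, chr13:23698084-23698109, minus strand: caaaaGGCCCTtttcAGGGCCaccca

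A stem of 6 bases with at least 5 pairs around a loop of 4 bases was sought after the stop codon. The search also required GG at the start, CC at the end and T at set positions of the loop. It used only the longest coding transcript of each gene. Such a stem-loop was found in 45 of the 67 coding members, and its GG and CC ends were fixed by the search. The stem GGCTCT with AGAGCC was the form in the H1, H2A, H2B and H3 genes that had one, and the H4 genes had GGCCCT with AGGGCC or GGTCCT with AGGACC. No stem-loop of this pattern was found in the transcript searched of 22 coding members. For 15 of these the annotated transcript stops fewer than 20 bases after the stop codon, so that its letters end before a loop could be seen.

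At least 1 read was counted on 49 of the 71 members, on 37 in KO and 43 in WT, with 31 counted in both. That is 52.1% and 60.6% of the members, beside 43.0% and 44.7% of all genes listed. The other 22 members had 0 counts in both libraries, and a count of 0 at this depth allows up to 3 assigned reads. For members that share most of their sequence with other genes, such as *Hist2h3b* and *Hist1h3h*, this limit does not bound expression. How reads with several matches were treated is not given, so they could have been dropped or assigned to a copy. Other members with 0 counts, such as *Hist1h1t* and *Hist2h4*, share little or none of their sequence. Another 29 members had 1 to 9 counts over both libraries and together held 44 KO and 64 WT counts. This left 20 members with the 10 counts over both libraries that the test required, 1 H1, 4 H2A, 7 H2B, 4 H3 and 4 H4 genes. The 4 genes with the most counts held 82.1% of the histone counts in KO and 82.2% in WT.

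**Figure D1:**
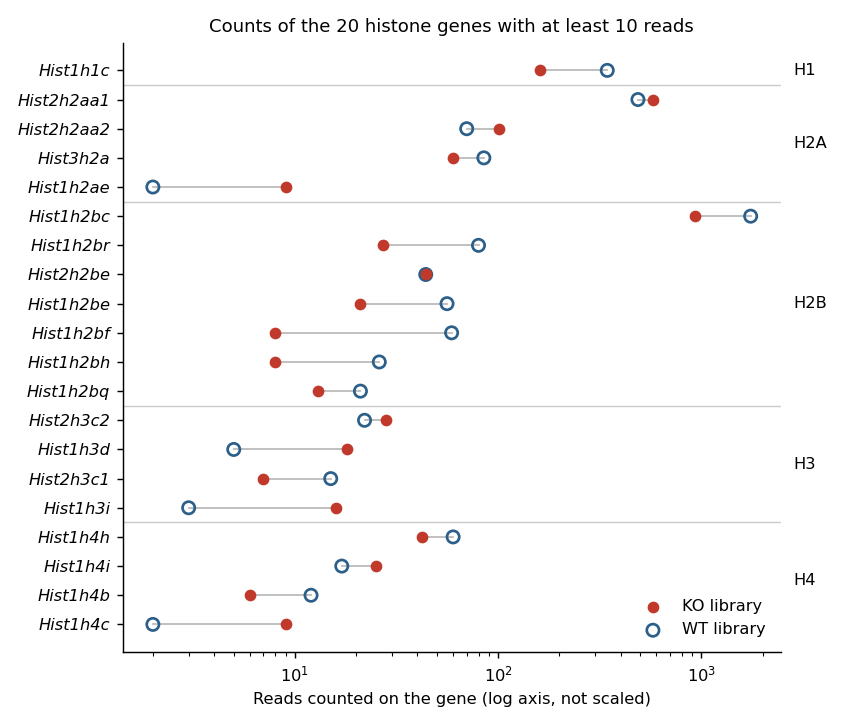
Reads counted in the KO library (filled) and the WT library (open) on each of the 20 histone genes with at least 10 counts, on a log axis and without scaling, ordered by class. *Hist1h2bc* stands highest, at 930 and 1746 reads, and 8 genes have fewer than 10 reads in at least 1 library.

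Per length, the highest level belonged to *Hist1h2bc* (ENSMUSG00000018102, chromosome 13, 23684199 to 23692488), an H2B gene. The authors' FPKM, which are scaled by the total count, were 95.4 in KO and 180.2 in WT, ranks 238 and 209 among all genes listed. GENCODE M21 gives this gene a transcript of 2 exons with 742 bases after the stop codon, in which the search found no stem-loop. *Hist2h2aa1* (ENSMUSG00000064220, chromosome 3, 96245497 to 96246082), an H2A gene with a single exon, followed with FPKM of 74.6 and 63.1, ranks 302 and 507. Its near copy *Hist2h2aa2* (ENSMUSG00000063954) had FPKM of 14.4 and 10.1. *Hist1h1c* (ENSMUSG00000036181), which encodes linker histone H1.2 and whose annotated exon runs 840 bases past the stem-loop, had FPKM of 7.74 and 16.8. The highest levels among the H3 genes were 2.94 and 1.64, and among the H4 genes 6.70 and 9.64. H3 and H4 enter chromatin in equal amounts with H2A and H2B, and no H3 or H4 gene came near the level of the leading H2A and H2B genes.

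Of the 20 members tested, 1 was lower in the KO library and 6 were higher, at a 2-fold change and an adjusted p-value threshold of 0.05 (exact binomial test). Over all 13561 genes tested, 8.32% were lower and 7.97% were higher by the same rule. The gene that fell was *Hist1h2bf*, and those that rose were *Hist1h2ae*, *Hist2h2aa2*, *Hist1h3d*, *Hist1h3i*, *Hist1h4c* and *Hist1h4i*. The median log2 fold change of the 20 members was 0.08, and that of all genes tested was 0.0006. The 95% intervals of 5 members lay below 0, those of 8 above 0, and those of 7 included 0. The matching shares over all genes were not computed, so these interval counts are not read as a trait of the members. Scaling by total counts gave 5 lower members (*Hist1h1c*, *Hist1h2be*, *Hist1h2bf*, *Hist1h2bh* and *Hist1h2br*) and 2 higher (*Hist1h3d* and *Hist1h3i*), beside 25% and 3.47% of all genes. With an assumed coefficient of variation of 0.2 between animals, *Hist1h2bf* was called lower and *Hist1h3i* higher, beside 3.27% and 3.6% of all genes. With 0.4 no member was called, beside only 0.428% of all genes lower and 0.435% higher.

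**Figure D2:**
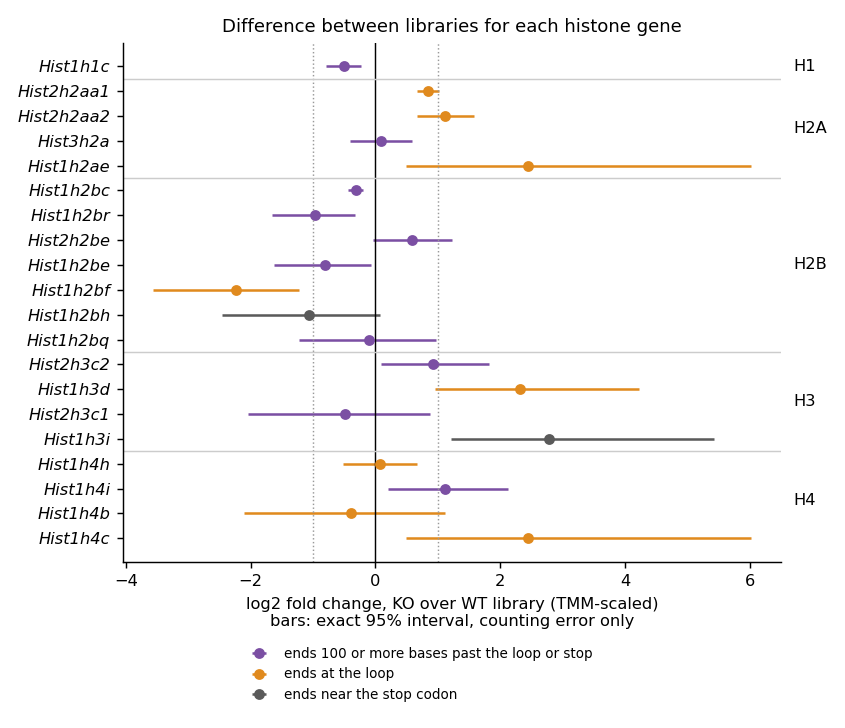
Log2 fold change of the 20 genes between the KO and WT libraries after TMM scaling, with exact 95% intervals for counting error and colors for where the counted gene ends. H2B genes lie mostly left of 0 and *Hist1h2bf* lowest at −2.23, while *Hist2h3c2*, *Hist1h3d* and *Hist1h3i* lie right of 0. Scaling by total counts shifts all points by about −0.60 and puts *Hist3h2a*, *Hist2h2be* and *Hist1h4h* below 0.

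Linker histone was almost wholly *Hist1h1c*. Its 160 reads in KO and 344 in WT were 7.42% and 10.7% of the histone counts. The log2 fold change was −0.51 (95% interval −0.79 to −0.24; adjusted p = 0.000681, exact binomial test), below the 2-fold limit. The other 5 H1 genes had at most 7 counts in a library, and *Hist1h1t*, the testis form, had none. Summed H1 counts gave −0.49 (−0.77 to −0.22), but 0.08 without *Hist1h1c*, a value that rests on few reads.

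Reads of the H2A genes came mostly from the near-identical genes *Hist2h2aa1* and *Hist2h2aa2*. *Hist2h2aa1* had 579 reads in KO and 487 in WT. After scaling, which takes the KO library as the smaller one, its log2 fold change was 0.84 (0.67 to 1.02; adjusted p = 4.09e-20, exact binomial test), below the 2-fold limit. *Hist2h2aa2* had 101 and 70 reads, a difference of 1.11 on the log2 scale (0.67 to 1.58; adjusted p = 2.55e-06, exact binomial test), which the scaling by total counts reduced to 0.52. All 51-base words of *Hist2h2aa2* occur in *Hist2h2aa1*, so reads of these genes could have been divided either way, and their sum is the safer value. That sum was 680 reads in KO and 557 in WT, higher by 0.88 on the log2 scale (0.72 to 1.04). The genes *Gm20632*, *Gm20633* and *Gm20634* overlap these loci, and adding their counts left the value at 0.88.

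The rest of the class was sparse. *Hist3h2a*, which encodes an H2A and runs 1643 bases past its stem-loop, had 60 and 85 reads, with a difference of 0.09 (−0.41 to 0.58). *Hist1h2ae* had 9 and 2 counts, a difference of 2.45 on the log2 scale with an interval from 0.49 to 6.01. The 18 H2A genes other than *Hist2h2aa1* and *Hist2h2aa2* summed to 79 and 105 counts, 0.18 (−0.26 to 0.62). Over the whole class, summed counts were 759 and 662, higher by 0.79 on the log2 scale (0.64 to 0.94), which total counts reduced to 0.19.

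H2B held most histone reads in both libraries, with 1057 in KO and 2035 in WT. *Hist1h2bc* alone had 930 and 1746 of them, 43.2% and 54.2% of all histone counts, and differed by −0.32 on the log2 scale (−0.43 to −0.20; adjusted p = 3.21e-07, exact binomial test). Without it, the H2B sum differed by −0.59 and the sum over all histone genes by 0.33 (0.21 to 0.44).

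*Hist1h2bf* had 8 reads in KO and 59 in WT. Its log2 fold change of −2.23 (−3.57 to −1.22) was the lowest of the members and passed the test (adjusted p = 5.44e-06, exact binomial test). Unlike *Hist1h2bc*, it is a single exon that ends 29 bases past the stem-loop. Within each library, the ratio of *Hist1h2bf* to *Hist1h2bc*, which no scaling affects, was 0.00860 in KO and 0.0338 in WT, a ratio of these of 0.255 (0.105 to 0.538). *Hist1h2bf* shares 65.5% of its 51-base words with other genes, most of all with *Hist1h2bg*, which had 0 and 1 counts.

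Other H2B genes with WT counts above KO counts did not pass both limits. *Hist1h2br* had 27 and 80 counts (−0.96, −1.66 to −0.33), *Hist1h2be* had 21 and 56 (−0.81, −1.62 to −0.08), and *Hist1h2bh* had 8 and 26 (−1.07, −2.46 to 0.08). *Hist1h2bq*, which shares 97.2% of its words with other genes, chiefly *Hist1h2br*, had 13 and 21 counts (−0.10, −1.22 to 0.97), and this pair summed to 40 and 101 (−0.74, −1.31 to −0.20). *Hist2h2be*, which shares no 51-base word with another gene and continues 2192 bases past its stop codon, had 44 counts in both libraries, a scaled difference of 0.59 (−0.04 to 1.23). It was the 1 tested H2B gene with a positive value, and by total counts it was −0.01. Summed over the class, the H2B value was −0.35 (−0.46 to −0.24), but it was 0.59 when genes sharing over 10% of their words were left out, which left *Hist2h2be* as the counted gene.

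Among the H3 genes, *Hist1h3d* had 18 reads in KO and 5 in WT, and *Hist1h3i* had 16 and 3. Their log2 fold changes were 2.31 (0.96 to 4.23; adjusted p = 0.00119, exact binomial test) and 2.78 (1.20 to 5.43; adjusted p = 0.000595, exact binomial test). Both were higher under every scaling tried. *Hist1h3i* shares 87.3% of its words with other genes, most with *Hist1h3h*, which had 0 counts in both libraries. *Hist2h3c2* had 28 and 22 counts (0.92, 0.08 to 1.82; adjusted p = 0.0594, exact binomial test) and *Hist2h3c1* had 7 and 15 (−0.48, −2.04 to 0.87). Both together had 35 and 37 counts (0.51, −0.20 to 1.22), and *Hist2h3c2* shares 63.5% of its words with other genes. All words of *Hist2h3c1* also occur in the overlapping *Gm20634*, which had 100 and 79 counts. The class sum was 80 and 54 reads, a difference of 1.16 on the log2 scale (0.64 to 1.69) that remained positive, at 0.56, by total counts.

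H4 genes gave no common direction. *Hist1h4h*, the H4 gene with the most reads, had 42 and 60 reads, with a difference of 0.08 (−0.53 to 0.67). *Hist1h4i* had 25 and 17 counts and passed the test at 1.12 (0.20 to 2.13; adjusted p = 0.0262, exact binomial test), but lost its call by total counts and with a prior count of 5. *Hist1h4c* had 9 and 2 counts (2.45, 0.49 to 6.01), and *Hist1h4b* had 6 and 12 (−0.39, −2.11 to 1.12). The 13 genes together had 92 and 115 counts, 0.27 (−0.14 to 0.68), which total counts turned to −0.33.

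Shares of the histone counts avoid the scaling, since they are taken within each library. H2A made up 35.2% of the histone counts in KO (exact 95% interval 33.2% to 37.3%) and 20.6% in WT (19.2% to 22.0%). H2B made up 49.0% (46.9% to 51.2%) and 63.2% (61.5% to 64.9%), and H1 7.75% (6.66% to 8.96%) and 11.0% (9.93% to 12.1%). H3 made up 3.71% (2.95% to 4.60%) and 1.68% (1.26% to 2.18%), and H4 4.27% (3.46% to 5.21%) and 3.57% (2.96% to 4.27%). The intervals of H4 overlapped between the libraries and those of the other classes did not. No matching comparison over other groups of genes was made, so the overlaps are not read as a trait of the classes. The shares are also tied to one another, and a few genes rule them. Without *Hist2h2aa1* and *Hist2h2aa2*, the scaled H2A sum differed by only 0.18 on the log2 scale (−0.26 to 0.62). The ratio of H2A to H2B counts was 0.718 in KO and 0.325 in WT, 2.21-fold apart (exact conditional interval 1.94 to 2.51). The ratio of H3 to H4 was 0.870 and 0.470, 1.85-fold apart (1.16 to 2.95). H1 relative to H2B was 0.158 and 0.174, a ratio of 0.908 whose interval of 0.740 to 1.11 includes 1.

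**Figure D3:**
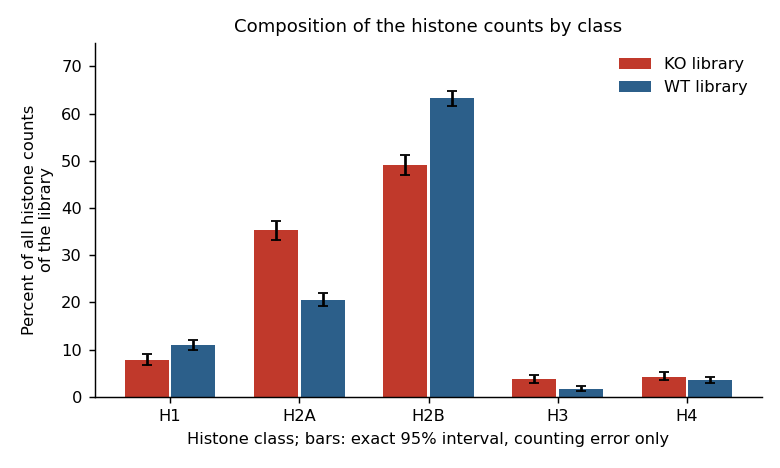
Percent of all histone counts of a library that fell on each class, KO beside WT, with exact 95% intervals for counting error. H2A is at 35.2% in KO and 20.6% in WT, and H2B at 49.0% and 63.2%, so that the distance between these classes is smaller in KO.

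The members were also grouped by where the counted gene ends, with limits set after the values had been seen, so that no test is given. A counted gene that ran at least 100 bases past the stem-loop was called long, as was one with no loop found whose GENCODE M21 transcript ran at least 100 bases past the stop codon. One that ended nearer the loop was called loop-ending, and the other coding members ended near the stop codon. The 4 members that are not coding, with 0 and 3 counts, were left out. The 18 long genes, among them *Hist1h2bc*, *Hist1h1c*, *Hist3h2a* and *Hist2h2be*, held 61.2% of the histone counts in KO and 75.8% in WT. *Hist1h2bc* supplied 930 and 1746 of their 1318 and 2441 counts, and was placed here by its GENCODE M21 transcript of 1156 bases, while its counted length was 736 bases and its coordinates differ from GENCODE M21. The 29 loop-ending genes held 36.9% and 22.8%, and the 20 genes that ended near the stop codon held 1.90% and 1.30%. Reads beyond the counted end are not part of these counts, although GENCODE M21 carries some genes further, such as *Hist1h2ac* by 2010 bases past its loop.

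Between the libraries the long genes differed by −0.30 on the log2 scale (−0.39 to −0.20), and the loop-ending genes, with 796 and 734 counts, by 0.71 (0.56 to 0.86). Within each library, loop-ending counts were 0.604 of the long counts in KO and 0.301 in WT, 2.01-fold apart (1.78 to 2.27). Without *Hist2h2aa1* and *Hist2h2aa2* the value was 1.21-fold (0.943 to 1.56). These intervals describe counting error and are no test, since the groups and the genes left out were chosen from the values.

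By genome cluster, a grouping also made after the values had been seen, the 56 *Hist1* genes on chromosome 13 summed to 1333 and 2497 counts, and the 11 *Hist2* genes on chromosome 3 to 761 and 638. Their log2 fold changes were −0.31 (−0.41 to −0.22) and 0.85 (0.69 to 1.00). The ratio of *Hist2* to *Hist1* counts was 0.571 in KO and 0.256 in WT, 2.23-fold apart (1.97 to 2.54). Without *Hist2h2aa1* and *Hist2h2aa2* on one side and *Hist1h2bc* on the other, it was 0.201 and 0.108, 1.86-fold apart (1.32 to 2.63), with 81 *Hist2* counts in each library and with *Hist1h1c* still in the *Hist1* sum. The 3 *Hist3* genes on chromosome 11 had 61 and 85 counts (0.11, −0.39 to 0.61), nearly all from *Hist3h2a*, and *Hist4h4* on chromosome 6 had none.

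Many H2A and H2B genes lie head to head and share the DNA between their start sites. In 14 such pairs the starts were 173 to 306 bases apart. The 4 pairs described next are among those with the most reads, and in them nearly all reads fell on the H2B side. *Hist1h2bc*, with 930 and 1746 counts, faces *Hist1h2ac*, with 0 and 5, across 275 bases. *Hist2h2be*, with 44 in both libraries, faces *Hist2h2ac*, which had none. *Hist1h2br*, with 27 and 80, faces *Hist1h2ap*, with 0 and 1, and *Hist1h2bf*, with 8 and 59, faces *Hist1h2ad*, with 1 and 1. In another pair the reads fell on the H2A side: *Hist3h2a*, with 60 and 85, faces the pseudogene *Hist3h2bb-ps*, with none. *Hist1h2bq*, with 13 and 21, faces *Hist1h2ao*, with 5 and 0. The remaining pairs had few or no reads on either side.

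The members also share promoter letters that the choice of genes did not use. RefSeq windows on GRCm38.p6, 250 bases before to 50 after the start, were found for 62 RefSeq symbols of the members (63 windows). They were searched on both strands. No window was found for *Hist1h2bc*, the gene with the most reads, nor for some other members, *Hist2h2be* among them. The TATA box TATAAA was in 55.6% of the histone windows and in 13.6% of all windows, and CCAAT was in 85.7% and 37.4%. CCAAT was in every window of the H1, H2A, H2B and H3 genes and in 25% of the H4 windows. The octamer ATTTGCAT, which Oct-1 binds in H2B promoters, was in 41.2% of the H2B and 38.9% of the H2A windows, beside 1.74% of all windows. AAACACA, known from H1 promoters, was in 83.3% of the H1 windows and 7.18% of all. Some windows of facing genes hold the same letters, and a match is not a bound site.

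Near-identical copies limit what can be said of single genes. Of the 71 members, 62 shared over 10% of their 51-base words with another gene, and the median share was 53.75%. If each such read was counted once, the counts of a class do not depend on how reads were divided within it. For this reason the class sums are given beside the genes. The treatment of reads with several matches is not given, and dropping or repeating them would change the class sums too. They can still depend on words shared with genes outside the class. *Hist2h3c1* shares 100% and *Hist2h3c2* 63.5% of their words with *Gm20634*, which had 100 and 79 counts. *Hist2h2aa1* shares 100% with *Gm20633*, and *Hist3h2a* 31.4% with *Trim17*.

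Genes outside the clusters also encode histones, many of which are made outside S phase as well, from polyadenylated mRNAs. How far each gene listed here depends on replication or has a tailless mRNA was not tested. Of 11 histone genes outside the clusters, all were tested, 1 was higher in KO and none was lower. Their median log2 fold change was −0.24. The gene that rose was *H2afz*, which encodes H2A.Z, with 66 and 39 counts (1.34, 0.76 to 1.96; adjusted p = 1.57e-05, exact binomial test). *H2afx*, which encodes H2A.X, the form phosphorylated at DNA breaks, had 150 and 434 counts and a value of −0.94 (−1.22 to −0.67). *H3f3b*, a source of H3.3, had 1108 and 2228 counts (−0.42, −0.52 to −0.31), and *H3f3a*, which encodes the same protein, had 559 and 914 (−0.12, −0.27 to 0.04). Linker histone *H1f0*, of differentiated cells, had 768 and 1005 counts (0.20, 0.07 to 0.34). These few genes summed to 388.9 and 449.1 CPM, more than the 71 clustered genes together.

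Genes that act on the histone mRNAs are given beside the 8.32% of all genes called lower and the 7.97% called higher. Of 8 genes of histone transcription, 1 was higher and 1 lower, with a median of 0.14. *Hinfp*, the activator of H4 genes, had 47 and 28 counts (1.32, 0.63 to 2.07; adjusted p = 0.000315, exact binomial test), and *Ccne2*, cyclin E2, had 6 and 37 (−1.96, −3.57 to −0.78; adjusted p = 0.001, exact binomial test). *Npat*, the coactivator of all histone classes, had 62 and 80 counts (0.22, −0.28 to 0.72). Of 11 genes of 3′ processing, *Zfp473*, a zinc finger protein of the SLBP complex, was higher, with 33 and 19 counts (1.36), *Lsm11*, a part of the U7 particle that cuts the histone mRNA, was lower, with 8 and 47 (−1.91), and the median was −0.15. *Slbp* had 38 and 81 counts (−0.50, −1.10 to 0.07; adjusted p = 0.157, exact binomial test). None of 7 genes of histone mRNA decay was called, with a median of 0.11.

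Genes of histone delivery and of DNA synthesis are likewise read beside 8.32% of all genes called lower. Of 9 histone chaperones and importers, 7 had negative values and 2 positive, *Nasp* (0.27) and *Ipo4* (0.53), and the median was −0.48. The 1 that was called was *Asf1b*, an H3-H4 chaperone of dividing cells, with 6 and 64 counts (−2.74, −4.32 to −1.62; adjusted p = 4.04e-08, exact binomial test). Of 21 S phase genes, 21 had negative values and the median was −0.67, beside 6778 negative values among the 13561 genes tested. The 4 that were called lower were *Rrm2*, a subunit of ribonucleotide reductase, with 72 and 302 counts (−1.47), *Top2a*, DNA topoisomerase IIα, with 104 and 374 (−1.25), *Gins2*, part of the replicative helicase, with 4 and 46 (−2.81), and *Pola1*, DNA polymerase α, with 15 and 54 (−1.23). *Pcna*, the sliding clamp, had 176 and 424 counts (−0.67, −0.94 to −0.42). Beside these medians, the median of the 20 histone members tested was 0.08. Sums are another measure, ruled by the genes with the most reads. The S phase genes summed to 300.3 CPM in KO and 448.1 in WT. The summed histone counts stood at 0.01 and the H2A sum at 0.79, while the H1 and H2B sums were negative, at −0.49 and −0.35.

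**Figure D4:**
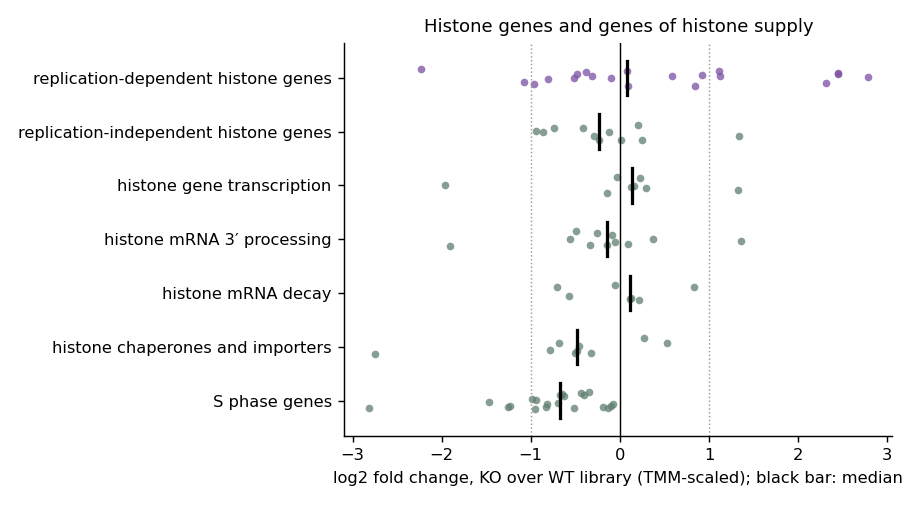
Log2 fold change, KO over WT library, of each tested gene in the histone clusters and in 6 lists of genes of histone supply, with the median of each list as a black bar. The histone genes spread from −2.23 to 2.78 around a median of 0.08, and the 21 S phase genes all lie below 0. Scaling by total counts shifts every point by about −0.60, which would put the medians near 0 below it.

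As a check on the selection for poly(A), 10 RNAs without a tail were sought, of which 5 were listed in the table. *Rmrp* had 0 and 2 counts, *Rpph1* had 11 and 8, and *Terc* and *Vaultrc5* had none. *Malat1*, whose end is a triple helix in place of a poly(A) tail, had 547 and 825 counts (−0.0005, −0.16 to 0.16). Nearly all of these reads were on *Malat1*, and the other listed RNAs had few or none. With so few RNAs listed, the check cannot tell how far tailless RNA passed the selection. The part of tailless RNA in the histone counts was not tested.

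Markers of liver cells were summed in each library. The 6 hepatocyte markers summed to 52015 CPM in KO and 51848 in WT, with none at 0, as the liver label requires. None was called. *Alb* gave most of the sum, 31603 and 33090 CPM. Of the 6, 4 had negative values, down to −0.63 for *Cps1*, and 2 positive, up to 0.23 for *Ttr*. Other cells that divide in regenerating liver could also supply histone mRNA. The 6 markers of Kupffer cells and macrophages summed to 100.8 and 136.2 CPM, with *Adgre1* and *Marco* lower. The 5 of endothelial cells summed to 52.1 and 60.1, with *Lyve1* lower, and the 6 of stellate cells to 81.9 and 118.8, with *Col1a1* lower. The 5 of cholangiocytes summed to 163.6 and 125.3, with *Krt19* and *Krt7* higher. The 7 of lymphocytes summed to 2.05 and 2.22, with *Cd79a* higher and *Cd3e*, *Cd3d* and *Cd3g* at 0 in KO. The 6 of neutrophils summed to 32.6 and 30.5, with none called, *Ly6g* at 0 in both and *Mpo* and *Elane* at 0 in KO. Those of erythroid cells summed to 84.7 and 80.4, with *Alas2* higher and *Hbb-bs* lower. *Alas2* alone gave 49.7 and 21.4 CPM of these sums. Of the 5 erythroid markers tested, 4 had negative values and 1 positive, with a median log2 fold change of −0.59. The part of these cells in the histone counts was not tested.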

How the data were processed

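Liver RNA of 1 KO and 1 WT library was purified on poly-T beads, primed with random primers and sequenced on Illumina HiSeq instruments, as the study's methods describe. The authors deposited whole-number read counts per gene and FPKM, which they computed from the counts and the total of each library. The submitters' processing notes name HISAT2 2.0.4, StringTie and edgeR and a human build, although the loci are mouse: 48 of the 71 members have the same coordinates in GENCODE M21 (GRCm38). Strand, read length and the treatment of reads with several matches are not given in the sources used here.

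Members and lists were chosen with earlier results of these data known. A minimum of 10 counts, summed over the libraries, was set for testing in R 4.3.3 with edgeR 4.0.16 (TMM, prior count 0.5). The exact binomial test was two-sided, of the KO reads against the share given by the scaled library sizes, with p-values adjusted by the Benjamini-Hochberg method over 13561 genes, with a 2-fold minimum. Every member tested and every called list member was to be named. Steps were tested on simulated data. Alternatives were other scalings (DESeq2 1.42.0 among them), count minimums, a prior count of 5, an assumed coefficient of variation, FPKM with a pseudocount of 0.1, and fewer members. Figures were drawn with matplotlib 3.10.9 in Python 3.11.15. Columns of annotation were not used.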

Additional observations from a re-analysis of the deposited data

How the results depend on the processing

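No paired analysis was possible because there is only 1 library of each kind, and no replicate could be left out. Scaling by total counts gave 5 members lower and 2 higher, and sums of −0.59 for all members, −1.09 for H1, 0.19 for H2A, −0.95 for H2B, 0.56 for H3 and −0.33 for H4 (log2, KO over WT). By total counts, 25% of all genes were lower and 3.47% higher. Total counts without the mitochondrial genes gave 2 members lower, beside 9.6% of all genes, and −0.074 for all members. FPKM gave 5 lower, beside 21.6% of all genes, and a 2-fold change with no test gave 2 lower, beside 9.94%. A coefficient of variation of 0.4 gave 0 lower and 0 higher, beside 0.428% and 0.435% of all genes. A coefficient of variation of 0.2 and a minimum of 50 counts each gave 1 higher, beside 3.6% and 5.88%. Without the member with the most counts, the sums were 0.33 for all members, 0.078 for H1, 0.63 for H2A and −0.59 for H2B, and without members that share over 10% of their words they were −0.34 for all members and 0.59 for H2B. *Hist3h2a* was −0.51, *Hist2h2be* −0.0091 and *Hist1h4h* −0.52 by total counts, and *Hist1h4h* was −0.0094 without the mitochondrial genes. With size factors of DESeq2 or the upper quartile, *Hist1h2bf* was called lower and 6 members higher, as with TMM. Over all genes, DESeq2 factors gave 8.38% lower and 7.93% higher, and the upper quartile 8.16% and 8.02%. Of the alternatives tried on these sums, counts and genes, 125 kept their direction and their side of the limits or moved little. The other 36 did not. For the member counts and sums alone, 39 held, 20 moved and 2 reversed, while for single genes 86 held. At this depth 20 of 71 members could be tested.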
